A study of Mus musculus with 8 samples.

Results

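Bone morphogenetic proteins (BMPs) and transforming growth factor beta (TGF-beta) are related secreted ligands, and 10 genes of their signalling were followed here: the ligands Bmp2, Bmp4 and Bmp7, the extracellular BMP antagonists Nog and Grem1, and the target genes Id1, Id2, Id3, Smad6 and Tgfbi. All probes whose platform gene symbol was one of these 10 were taken, which gave 13 of the 25697 probes on the array and 10 of the 16593 named genes; 7 genes had 1 probe each, and Id2, Smad6 and Tgfbi had 2. Expression was measured on Illumina bead arrays in primary cells of forelimb and hindlimb buds from mouse embryos at embryonic day 11.5, kept in culture for 6 h. The cells were then left untreated (n = 2 arrays) or given for 24 h an adenovirus carrying LacZ, a bacterial reporter gene (AdeLacZ, n = 3), or Cre recombinase (AdeCre, n = 3). All 3 groups carried the strain label 129XB6-Sox4fl/fl11fl/fl, that is, floxed alleles of the transcription factor genes Sox4 and Sox11, which Cre can inactivate. The genotype labels read wild type for untreated cells, treated control for AdeLacZ and treated mutant for AdeCre, although the alleles were shared. Cre was given to floxed cells alone, so the enzyme and the deletion cannot be told apart, and no time is given for untreated cells, so virus and time in culture cannot be told apart either. Nothing states that arrays of a group came from separate cultures or litters, so the spread behind each p-value may be technical.

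BMPs bind paired serine/threonine kinase receptors, which phosphorylate receptor Smad proteins; these enter the nucleus with Smad4 and switch on genes such as Id1, Id2, Id3 and Smad6. Noggin (Nog) and gremlin (Grem1) bind BMPs outside the cell and keep them from their receptors. In the limb bud BMPs act in cartilage formation, in interdigital cell death and in the upkeep of the apical ectodermal ridge, and Grem1 in the mesenchyme relieves the ridge from BMPs. TGF-beta ligands use a largely separate set of receptors and receptor Smads. Tgfbi, which encodes a secreted matrix protein, is named for its induction by TGF-beta.

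The Sox4 probe checks the labels. It read 68.5 and 110.7 intensity units on the untreated arrays, 66.5, 75.9 and 78.1 on the AdeLacZ arrays and 10.9, 11.8 and 12.9 on the AdeCre arrays. The AdeCre values lay below all others, and the log2 change of Sox4 against AdeLacZ cells was -1.31 ± 0.13 (SE, limma adjusted p = 0.00114); whether the probe lies in the deleted part is not known here. Of 10 limb mesenchyme markers 9 had a probe and all 9 were above the detection floor on at least 2 arrays. Their summed intensity was 1889 to 1920 in untreated, 1759 to 1899 in AdeLacZ and 1643 to 1853 in AdeCre cells. Single markers moved within that sum: Meis2 rose by 1.08 and Twist1 fell by 0.66 (log2) in AdeLacZ against untreated cells (adjusted p = 0.00151 and 0.0142), and Hand2 and Lhx9 fell by 0.47 and 0.53 in AdeCre against AdeLacZ cells (adjusted p = 0.0464 and 0.0138). Untreated replicate 2 stood apart from untreated replicate 1 in interferon-induced genes: Isg15, a ubiquitin-like antiviral modifier, read 40.4 on replicate 1, 208.9 on replicate 2 and 639.0 to 1455 on the virus-treated arrays. Called changes of the 10 genes against untreated cells were therefore also examined without that array. Arrays within a group correlated at r = 0.991 to 0.994 across the tested probes, which are not independent replicates, and no 2 arrays were identical.

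The called changes among the 10 genes lay in the comparisons of virus-treated with untreated cells. Between AdeLacZ and untreated cells Tgfbi rose on both of its probes, while Nog and Bmp7 fell. Between AdeCre and AdeLacZ cells, which both carried virus, no probe of the 10 genes passed the test. Id1, Id2 and Id3 did not pass in any of the 3 comparisons, which share arrays. A probe passed when its limma adjusted p, taken over all 15944 tested probes by Benjamini and Hochberg, was under 0.05. In bulk RNA, fewer cells of a type and less RNA per cell cannot be told apart.

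**Figure D1:**
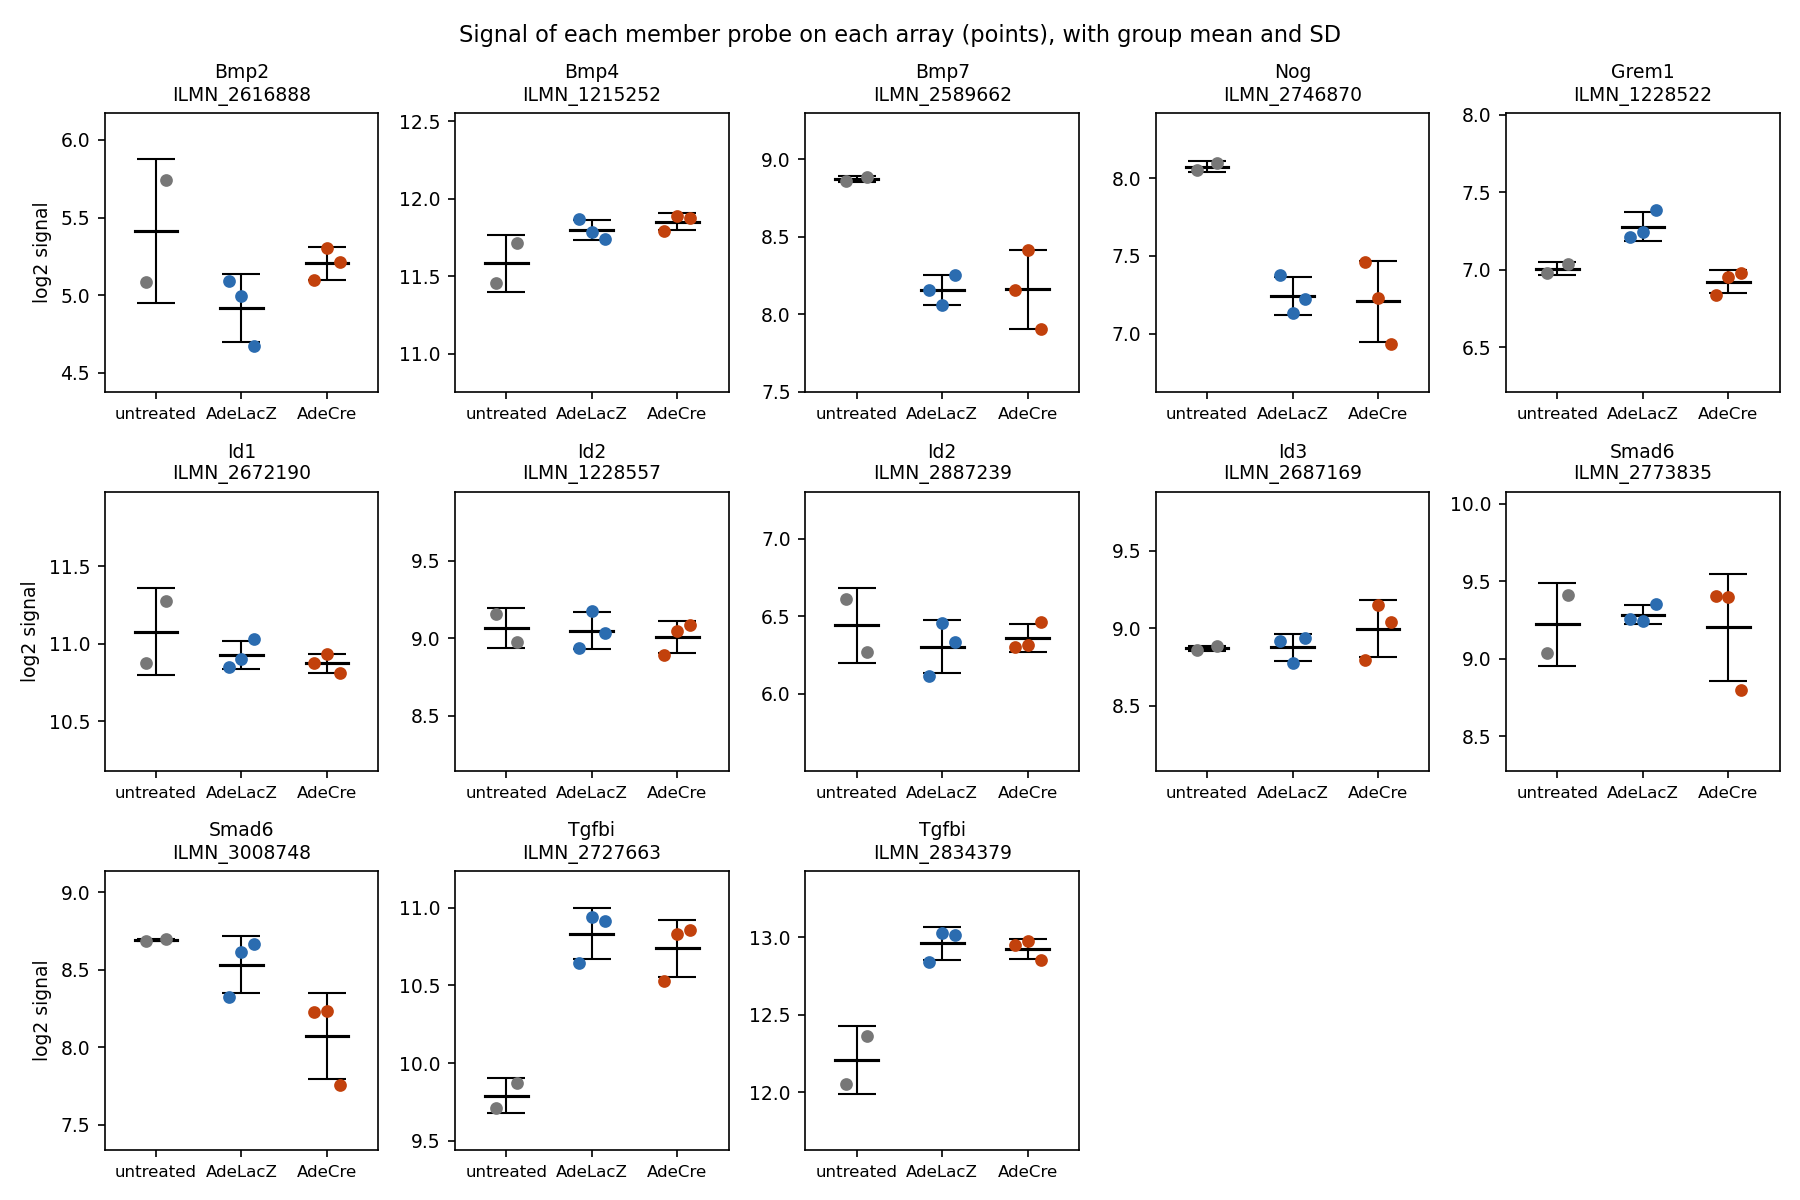
Log2 signal (normexp-corrected intensity with an offset of 16) of the 13 probes on each array, with 1 point per array and the group mean and SD in black; each panel has its own vertical axis. The Tgfbi panels show all 6 virus-treated arrays above the 2 untreated arrays, and the Nog and Bmp7 panels show them below.

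Of the ligands, Bmp7 was lower in virus-treated cells, Bmp4 did not differ by the test, and Bmp2 was near background. Bmp7 read 434.8 and 443.1 intensity units on the untreated arrays, 256.0, 237.8 and 276.2 on the AdeLacZ arrays, and 255.7, 312.5 and 210.7 on the AdeCre arrays. The untreated values lay above all virus-treated ones, while the AdeCre values spanned the AdeLacZ range. Bmp7 fell by 0.71 ± 0.14 on the log2 scale (SE, 1.64-fold, adjusted p = 0.0195) in AdeLacZ against untreated cells. In AdeCre against untreated cells the fall was also 0.71 (log2 change -0.71 ± 0.14, adjusted p = 0.00977). Between AdeCre and AdeLacZ cells the difference was 0.00, with a 95% interval of -0.28 to 0.29 (adjusted p = 0.995). The size of the fall was steady (-0.78 to -0.65 over 18 alternative settings in AdeLacZ against untreated cells), but the call held in only 12 of them. It was lost without untreated replicate 1 or 2 and with the replicate block. It was also lost without AdeLacZ replicate 1 or 2 (adjusted p = 0.0571 and 0.0630) or the normexp correction (adjusted p = 0.0579). In AdeCre against untreated cells it was lost without untreated replicate 1 or 2, with an adjusted p up to 0.0679.

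Bmp4 read 2774 and 3323 units in untreated, 3705, 3496 and 3390 in AdeLacZ and 3517, 3765 and 3726 in AdeCre cells. Every virus-treated array was above both untreated arrays, and the 2 virus groups overlapped. The log2 difference was 0.21 ± 0.11 for AdeLacZ against untreated cells (SE, adjusted p = 0.314) and 0.27 ± 0.11 for AdeCre against untreated cells (adjusted p = 0.146). Between the virus groups it was 0.06, with a 95% interval of -0.17 to 0.28. The Bmp2 probe exceeded the detection floor of 8.87 to 8.93 units only on untreated replicate 2 (23.8 units) and AdeCre replicate 2 (9.89 units). Its other values were 4.15 on untreated replicate 1, 4.43, 2.20 and -4.17 in AdeLacZ cells, and 4.51 and 7.36 in AdeCre cells. Untreated replicate 1 lay below AdeLacZ replicate 1, and no fold is given for so dim a probe. It did not pass in any comparison (adjusted p = 0.164 for AdeLacZ against untreated, 0.362 for AdeCre against AdeLacZ and 0.523 for AdeCre against untreated cells).

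Of the antagonists, Nog fell with virus, while Grem1 was highest in AdeLacZ cells. Nog read 235.8 and 244.8 units on the untreated arrays, 136.4, 110.3 and 119.6 on the AdeLacZ arrays and 146.1, 120.6 and 92.5 on the AdeCre arrays. No virus-treated array reached the untreated values, and the virus groups overlapped. Nog fell by 0.83 ± 0.15 on the log2 scale in AdeLacZ against untreated cells (SE, 1.78-fold, adjusted p = 0.0111) and by 0.87 ± 0.15 in AdeCre against untreated cells (1.83-fold, adjusted p = 0.00466). AdeCre and AdeLacZ cells differed by -0.03, with a 95% interval of -0.33 to 0.26. The first of these calls was lost without untreated replicate 1 (log2 change -0.86, adjusted p = 0.0920) or replicate 2 (-0.81, adjusted p = 0.0567), where the remaining untreated array is assumed to vary like the other groups. The second held in all 18 alternative settings, with adjusted p up to 0.0409.

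Grem1 read 96.4 and 101.6 units in untreated, 118.4, 121.6 and 137.3 in AdeLacZ and 84.7, 94.1 and 96.7 in AdeCre cells. The AdeLacZ arrays lay above all others, and the AdeCre and untreated values overlapped. The log2 difference was -0.35 ± 0.10 for AdeCre against AdeLacZ cells (SE, 95% interval -0.57 to -0.14, adjusted p = 0.0614) and 0.27 ± 0.11 for AdeLacZ against untreated cells (adjusted p = 0.179). For AdeCre against untreated cells it was -0.08 ± 0.11 (adjusted p = 0.668). The AdeCre against AdeLacZ difference passed in 3 of 18 alternative settings: with an offset of 50 (adjusted p = 0.0392), with array weights (0.0393) and with the stricter filter on dim probes (0.0441).

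Of the targets, only Tgfbi rose, and its 2 probes gave the same direction. The brighter probe, ILMN_2834379, read 4216 and 5234 units in untreated, 7288, 8295 and 8258 in AdeLacZ and 7876, 8013 and 7357 in AdeCre cells. The dimmer probe, ILMN_2727663, read 806.9 and 906.3 in untreated, 1570, 1940 and 1905 in AdeLacZ and 1445, 1796 and 1825 in AdeCre cells. On both probes every virus-treated array exceeded the untreated arrays, and the virus groups overlapped. In AdeLacZ against untreated cells Tgfbi rose by 0.75 ± 0.12 on the log2 scale on the brighter probe (SE, 1.68-fold, adjusted p = 0.00714). The dimmer probe rose by 1.05 ± 0.14 (2.06-fold, adjusted p = 0.00253). In AdeCre against untreated cells the rises were 0.72 ± 0.12 (adjusted p = 0.00466) and 0.95 ± 0.14 (adjusted p = 0.00236). Between the virus groups the probes differed by -0.03 (95% interval -0.28 to 0.21) and -0.10 (95% interval -0.37 to 0.18). The dimmer probe passed in all 18 alternative settings in both comparisons with untreated cells. The brighter one was lost without untreated replicate 1, with a log2 change of 0.60 (adjusted p = 0.0891) for AdeLacZ and 0.56 (adjusted p = 0.0534) for AdeCre. Without untreated replicate 2 its changes were 0.91 (AdeLacZ) and 0.87 (AdeCre), and it passed.

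The inhibitor-of-DNA-binding genes Id1, Id2 and Id3 encode helix-loop-helix proteins that lack a DNA-binding part and block partner factors, and they are widely used as readouts of BMP signalling. Id1 read 1852 and 2453 units in untreated, 1818, 1880 and 2062 in AdeLacZ and 1845, 1924 and 1768 in AdeCre cells, and all 3 groups overlapped. Id3 read 435.1 and 442.3 in untreated, 454.1, 409.3 and 460.7 in AdeLacZ and 414.4, 539.2 and 497.5 in AdeCre cells, again with overlap. The brighter Id2 probe, ILMN_1228557, ran from 445.5 to 547.8 units over all 8 arrays and the dimmer one, ILMN_2887239, from 39.8 to 68.3. For AdeCre against AdeLacZ cells the 95% intervals of the log2 difference were -0.32 to 0.21 for Id1, -0.13 to 0.37 for Id3, and -0.28 to 0.20 and -0.22 to 0.33 for the brighter and dimmer Id2 probes. For AdeLacZ against untreated cells they were -0.44 to 0.14 for Id1, -0.27 to 0.28 for Id3, and -0.28 to 0.25 and -0.45 to 0.17 for Id2.

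Smad6, which encodes an inhibitory Smad that BMP signalling induces and that feeds back on it, gave different results on its 2 probes. ILMN_2773835 read 494.3 and 651.5 units in untreated, 581.3, 574.9 and 624.2 in AdeLacZ and 648.6, 645.1 and 416.1 in AdeCre cells. ILMN_3008748 read 382.5 and 385.1 in untreated, 290.4, 361.2 and 376.3 in AdeLacZ and 270.1, 271.7 and 186.2 in AdeCre cells. On the first probe all groups overlapped; on the second the AdeCre arrays lay below all others. The second probe fell by 0.62 ± 0.16 on the log2 scale in AdeCre against untreated cells (SE, 1.54-fold, adjusted p = 0.0300), while the first differed by -0.02 ± 0.19 (adjusted p = 0.957). Against AdeLacZ cells the second differed by -0.46 ± 0.15 (95% interval -0.78 to -0.14, adjusted p = 0.0971) and the first by -0.08 ± 0.17 (95% interval -0.45 to 0.29). The call of the second probe in AdeCre against untreated cells held in 11 of 18 alternative settings and was lost without untreated replicate 1 (adjusted p = 0.140), untreated replicate 2 (0.108) or AdeCre replicate 3 (0.0585, log2 change -0.46). Both probes are assigned to 1 RefSeq transcript, and which of them follows the Smad6 message is not known here. AdeCre replicate 3 had the lowest value of its group for both Smad6 probes, Bmp7, Nog, Id1 and the brighter Tgfbi probe, and the highest for Grem1, both Id2 probes and the dimmer Tgfbi probe.

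**Figure D2:**
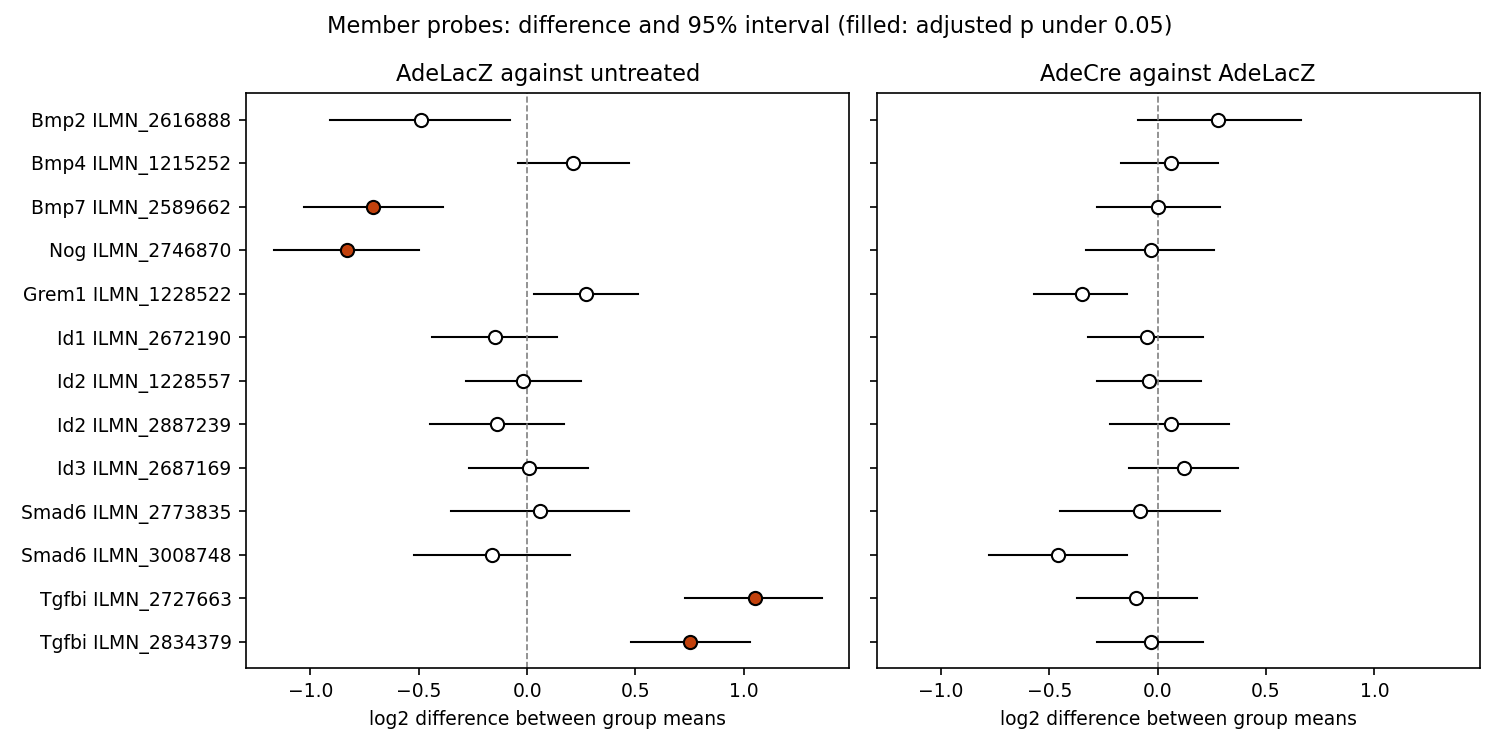
Log2 difference between group means (horizontal axis) with its 95% interval for the 13 probes, for AdeLacZ against untreated cells on the left and AdeCre against AdeLacZ cells on the right; filled points had an adjusted p under 0.05. Bmp7, Nog and both Tgfbi probes are filled on the left, and no point is filled on the right, where the intervals of Grem1 and of 1 Smad6 probe lie below 0.

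Counted over the 13 probes, 4 passed in AdeLacZ against untreated cells, 2 of them higher (both Tgfbi) and 2 lower (Bmp7 and Nog). Of all 15944 tested probes 5.23% passed there, 2.73% as higher and 2.50% as lower. In AdeCre against untreated cells 5 of the 13 passed, 2 higher and 3 lower, where 13.7% of all tested probes passed (6.61% higher and 7.08% lower). In AdeCre against AdeLacZ cells limma called 0 of 13, where 5.03% of all tested probes passed. Of the 13, 2 (Grem1 and 1 Smad6 probe) had an unadjusted limma p under 0.05, beside 21.2% of all 10765 tested genes on their brightest probe. The alternative settings gave 0 to 2 calls there. The AdeCre and AdeLacZ values did not overlap for 3 of the 13 probes (Bmp2, Grem1 and ILMN_3008748 of Smad6), against 28.4% of all tested probes. For Bmp2 only AdeCre replicate 2 (9.89 units) exceeded the detection floor among these arrays, so its separation lies within background readings. The median size of the log2 difference over the 13 was 0.06 in AdeCre against AdeLacZ cells, beside 0.14 over all tested probes, and 0.21 in AdeLacZ against untreated cells, beside 0.16. The 2 comparisons with untreated cells share their untreated arrays, so their counts are not separate evidence.

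Promoter sequence was available in the RefSeq tables (build GRCm38.p6) for 6 of the 10 genes: Bmp4, Grem1, Id2, Id3, Smad6 and Tgfbi. The 250 bases before the annotated start are printed for Tgfbi, which rose with virus, for Grem1, which was highest in AdeLacZ cells, and for Id2 and Id3, which did not pass. Capitals mark the Smad box GTCTG, read on both strands (CAGAC on the other), and the GC-rich motif GGCGCC, which is its own reverse complement and to which BMP-activated Smads can bind.
Tgfbi, chr13:56609336-56609585, plus strand: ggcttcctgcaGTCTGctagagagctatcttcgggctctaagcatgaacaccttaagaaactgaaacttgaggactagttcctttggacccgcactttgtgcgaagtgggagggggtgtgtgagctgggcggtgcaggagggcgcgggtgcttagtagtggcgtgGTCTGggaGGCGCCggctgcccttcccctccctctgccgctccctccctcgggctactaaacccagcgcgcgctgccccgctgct
Grem1, chr2:113758649-113758898, minus strand: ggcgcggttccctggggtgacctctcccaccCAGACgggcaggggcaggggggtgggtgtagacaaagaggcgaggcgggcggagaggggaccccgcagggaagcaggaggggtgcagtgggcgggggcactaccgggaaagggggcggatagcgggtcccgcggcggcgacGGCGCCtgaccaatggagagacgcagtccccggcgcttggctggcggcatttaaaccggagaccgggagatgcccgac
Id2, chr12:25096093-25096342, minus strand: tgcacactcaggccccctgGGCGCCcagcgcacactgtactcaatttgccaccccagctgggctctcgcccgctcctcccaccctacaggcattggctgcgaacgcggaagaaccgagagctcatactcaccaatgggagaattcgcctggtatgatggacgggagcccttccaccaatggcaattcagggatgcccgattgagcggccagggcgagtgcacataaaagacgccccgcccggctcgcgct
Id3, chr4:136143572-136143821, plus strand: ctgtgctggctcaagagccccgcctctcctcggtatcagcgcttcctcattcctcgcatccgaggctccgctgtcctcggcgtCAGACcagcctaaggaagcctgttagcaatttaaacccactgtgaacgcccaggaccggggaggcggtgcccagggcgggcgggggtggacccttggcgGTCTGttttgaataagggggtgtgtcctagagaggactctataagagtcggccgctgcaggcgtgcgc
The Tgfbi window held 2 copies of GTCTG and 1 of GGCGCC, and the Id3 window 2 of GTCTG. The Grem1 window held 1 of each, the Id2 window 1 of GGCGCC, and the windows of Bmp4 and Smad6 neither. Of all 32851 promoter windows of this length in the table, 42.2% held GTCTG and 9.6% GGCGCC. The motif matches are descriptions of the letters and say nothing of binding in these cells.

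Of 90 other genes of the pathway, listed by role, 79 had a probe and 64 were tested on the brightest probe of each. The list was chosen with earlier results of these data known. Its shares of called genes are therefore not an unbiased contrast with all tested genes, in any of the 3 comparisons. In AdeLacZ against untreated cells 5 of the 64 rose and 5 fell (15.6% called, beside 5.56% of all 10765 tested genes). Without untreated replicate 1 the count was 3 of 64, all among the 10 (Chrd, Sostdc1 and Dcn), as calls over all tested probes went from 834 to 168; without untreated replicate 2 it was 6 of 64. The antagonists moved in different directions. Chrd, which encodes the BMP antagonist chordin, ranged from 21.4 to 54.2 units in untreated and from 103.4 to 113.8 in AdeLacZ cells and rose by 1.06 ± 0.18 (log2, SE, adjusted p = 0.00723). Sostdc1, another secreted BMP antagonist, ranged from 193.0 to 244.6 in untreated and from 96.0 to 104.7 in AdeLacZ cells and fell by 0.94 ± 0.12 (adjusted p = 0.00236). Dcn, a matrix proteoglycan that binds TGF-beta, ranged from 263.5 to 351.1 against 58.7 to 74.7 and fell by 1.79 ± 0.14 (adjusted p = 2.35e-04). In these 3 genes untreated replicate 2 lay nearer to the AdeLacZ arrays than replicate 1 did; without it the changes were 1.42, -1.09 and -1.98, and all 3 passed in every alternative setting.

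Among ligands and receptors, Rgma, a BMP co-receptor gene, rose by 0.77 ± 0.13 (log2, SE) in AdeLacZ against untreated cells (adjusted p = 0.00835), and passed in 17 of 18 alternative settings. Tgfb2, a TGF-beta ligand gene, and Acvr2b, an activin receptor gene, rose by 0.46 ± 0.12 and 0.45 ± 0.11 (adjusted p = 0.0491 and 0.0489). Inhbb, which encodes an activin subunit, fell by 0.58 ± 0.12 (adjusted p = 0.0255). Among targets, Id4, the Id family gene outside the 10, fell by 0.60 ± 0.12 (adjusted p = 0.0197), and Gata6, a transcription factor gene, rose by 0.61 ± 0.14 (adjusted p = 0.0290). Cdkn2b, a cell cycle inhibitor gene that TGF-beta induces, fell from 1694 to 2047 units in untreated to 799.9 to 962.3 in AdeLacZ cells (log2 change -1.06 ± 0.16, adjusted p = 0.00413), the direction opposite to Tgfbi. It was 1 of 11 tested TGF-beta targets to pass. When each array was left out in turn, Id4, Gata6 and Inhbb passed in 4 of 8 fits each and Tgfb2 and Acvr2b in 1 of 8. These fits include those without an AdeCre array, which is not part of this comparison. Of the compared arrays, Id4 and Gata6 kept their call only without AdeLacZ replicate 3, and Inhbb only without AdeLacZ replicate 1. Tgfb2 and Acvr2b lost theirs whichever compared array was left out.

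**Figure D3:**
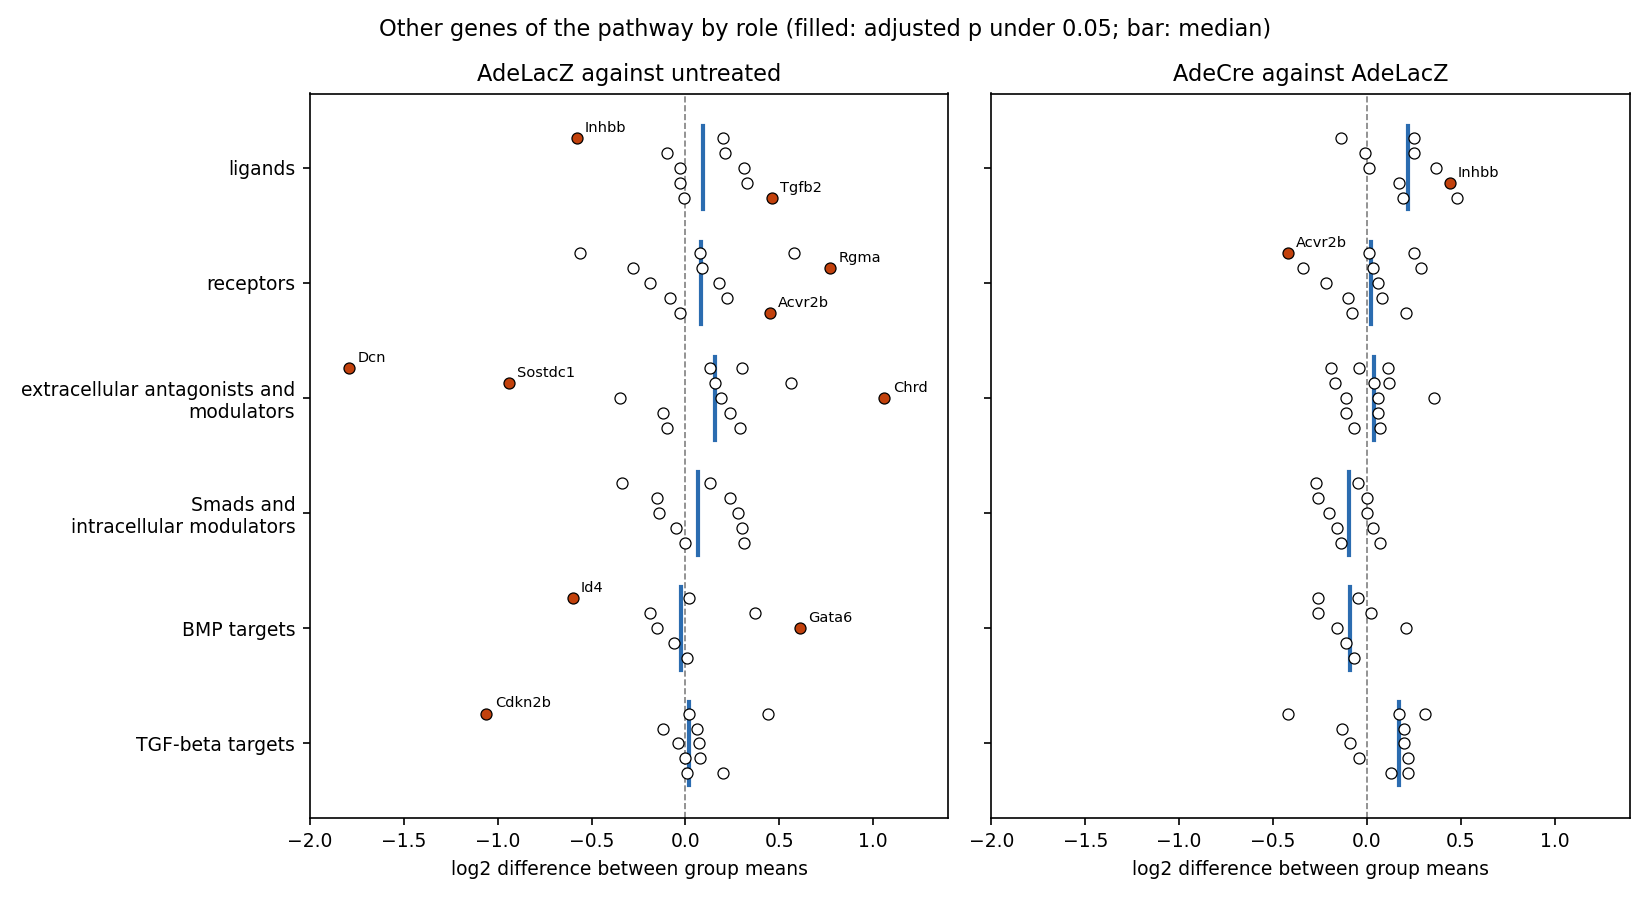
Log2 difference between group means (horizontal axis) of 64 other genes of the pathway in 6 roles, with 1 point per gene, filled where the adjusted p was under 0.05, and a blue bar at the median of each role. AdeLacZ against untreated cells (left) has 10 filled points, from Dcn at -1.79 to Chrd at 1.06, and AdeCre against AdeLacZ cells (right) has 2, Inhbb and Acvr2b.

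In AdeCre against AdeLacZ cells 2 of the 64 genes passed (3.12%, beside 4.62% of all tested genes). Inhbb ranged from 47.0 to 65.0 units in AdeLacZ and from 80.2 to 88.3 in AdeCre cells and rose by 0.44 ± 0.11 (log2, SE, adjusted p = 0.0485). Acvr2b ranged from 527.7 to 578.9 in AdeLacZ and from 372.7 to 428.9 in AdeCre cells and fell by 0.42 ± 0.10 (adjusted p = 0.0408). For both genes the AdeLacZ arrays stood apart, and the AdeCre arrays lay at or near the untreated values of 87.0 and 107.0 (Inhbb) and 369.8 and 427.9 (Acvr2b). Each call passed in 2 of the 8 fits without 1 array, and both of these left out an untreated array, which is not part of this comparison. It was lost whichever AdeLacZ or AdeCre array was left out. The adjusted p reached 0.163 (Inhbb) and 0.136 (Acvr2b), both without AdeLacZ replicate 2. Of all 64 genes, 15 had an unadjusted limma p under 0.05 (23.4%, beside 21.2% of all tested genes). They were 4 of 10 ligands, 5 of 12 receptors and 6 of the 42 antagonists, Smads and targets. Of those 42 limma called 0, which the grouping fixed, since both called genes lie among the ligands and receptors. Tgif1, a co-repressor of TGF-beta Smads, differed by -0.27 on its brightest probe (adjusted p = 0.171). A dimmer Tgif1 probe, ILMN_1212717, chosen after its values were seen, fell by 0.97 ± 0.15 (adjusted p = 0.00889). The other dimmer Tgif1 probe, ILMN_2767113, differed by -0.70 (adjusted p = 0.0860). For Tgfbr1 a dimmer probe, ILMN_2708965, also chosen after its values were seen, fell by 0.51 ± 0.12 (adjusted p = 0.0414). The brightest Tgfbr1 probe differed by -0.22 (adjusted p = 0.205) and the other dimmer one, ILMN_2980532, by 0.22 (adjusted p = 0.279).

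In AdeCre against untreated cells 14 of the 64 passed, 9 higher and 5 lower (21.9%, beside 13.5% of all tested genes). Without untreated replicate 1 the count was 5 of 64 (Bmpr1b, Rgma, Chrd, Sostdc1 and Dcn), as calls over all tested probes went from 2183 to 712. It was 8 of 64 without AdeCre replicate 1 and 9 without AdeCre replicate 2 or 3. Rgma (0.80 ± 0.13), Chrd (1.02 ± 0.18) and Gata6 (0.63 ± 0.14) rose and Sostdc1 (-1.01 ± 0.12), Dcn (-1.68 ± 0.14) and Cdkn2b (-0.89 ± 0.16) fell, with adjusted p up to 0.0127 (log2, SE). The ligand genes Gdf10 (0.46 ± 0.13), Tgfb2 (0.47 ± 0.12), Tgfb3 (0.49 ± 0.12) and Inhba (0.45 ± 0.12) rose with adjusted p of 0.0233 to 0.0393, which made 4 of 10 tested ligands; without untreated replicate 1, or without AdeCre replicate 1, 0 of the 10 ligands passed, with an adjusted p up to 0.218 (Inhba). Bmpr1b, a BMP receptor gene (0.59 ± 0.16), and Ltbp3, which encodes a latent TGF-beta binding protein (0.49 ± 0.13), rose, and Tgfbr1, a TGF-beta receptor gene (-0.50 ± 0.11), and Tgif1 (-0.41 ± 0.12) fell. Dimmer probes varied. Ltbp3 ILMN_2608746 differed by -0.06 (adjusted p = 0.841). For Tgfbr1, ILMN_2980532 differed by -0.13 (adjusted p = 0.548) and ILMN_2708965 by -1.01 (adjusted p = 0.00154). Those of Bmpr1b and Tgif1 kept the direction. Dimmer probes of Bmpr1a (ILMN_2653312, -0.49, adjusted p = 0.0203) and Smad5 (ILMN_3076864, -0.54, adjusted p = 0.0216), chosen after their values were seen, fell. The brightest probes of both genes did not pass, nor did the other dimmer Smad5 probe. Id4 differed by -0.38 (adjusted p = 0.0609). With each array left out in turn, Tgif1 passed in 1 of 8 fits, Gdf10 and Bmpr1b in 3, Tgfb2, Inhba and Ltbp3 in 4, Tgfb3 in 5, and Tgfbr1 and Gata6 in 7. These fits include those without an AdeLacZ array, which is not part of this comparison, and the 1 pass of Tgif1 was such a fit. The change of Bmpr1b was 0.35 without untreated replicate 2 (adjusted p = 0.247).

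Markers of other cell types moved with the same comparisons. Over all tested genes, limma called 5.56% in AdeLacZ against untreated, 4.62% in AdeCre against AdeLacZ and 13.5% in AdeCre against untreated cells. The summed intensity of the 8 macrophage markers with a probe, of 10 listed, was 982.3 to 1411 in untreated, 313.2 to 348.8 in AdeLacZ and 267.3 to 299.5 in AdeCre cells, and 4 of the 8 fell and 0 rose in AdeLacZ against untreated cells. That of 7 cartilage markers was 246.0 to 321.0, 613.5 to 690.9 and 543.3 to 599.6 in the same order. Among them Col2a1, the main cartilage collagen gene, rose by 1.26 ± 0.13 in AdeLacZ against untreated cells (log2, SE, adjusted p = 0.00104). Sox9, the cartilage-determining factor gene, rose there by 0.64 ± 0.13 (adjusted p = 0.0221). Col9a1 (0.56) and Matn4 (0.15) did not pass there, and Acan, Matn1 and Hapln1 were below the floor. In AdeCre against AdeLacZ cells Matn4 rose by 0.65 (adjusted p = 0.0446), although the sum was lower. Col2a1 (-0.30), Col9a1 (-0.27) and Sox9 (-0.01) did not pass in that comparison. The 11 markers of surface ectoderm and apical ridge summed to 908.8 to 991.1, 984.6 to 1151 and 1377 to 1513, with Fgf8 and Krt5 below the floor. Of the 9 above it, 1 rose (Krt19) and 0 fell in AdeCre against AdeLacZ cells. In the order untreated, AdeLacZ and AdeCre, 8 endothelial markers summed to 173.0 to 182.0, 147.9 to 159.7 and 111.2 to 115.0. Pecam1, Cdh5 and Tie1 were below the floor. That falling sum does not describe each marker. In AdeLacZ against untreated cells Tek fell by 0.68 (log2, adjusted p = 0.0404). Kdr, Esam, Emcn and Mmrn2 differed there by 0.19, 0.11, 0.47 and 0.48 and did not pass. Again in that order, 7 skeletal muscle markers summed to 10216 to 11582, 12189 to 13017 and 15266 to 16730. Of the 6 above the floor, 2 were called in AdeCre against AdeLacZ cells, Des (0.54) and Acta1 (0.55), both higher. Actc1 (0.09), Chrna1 (0.25), Myod1 (-0.23) and Myog (-0.19) did not pass there. The 5 erythroid markers summed to 6089 to 7216, 4165 to 4732 and 1309 to 1883. The part of these cell types in the changes of Tgfbi, Nog and Bmp7 was not tested.

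**Figure D4:**
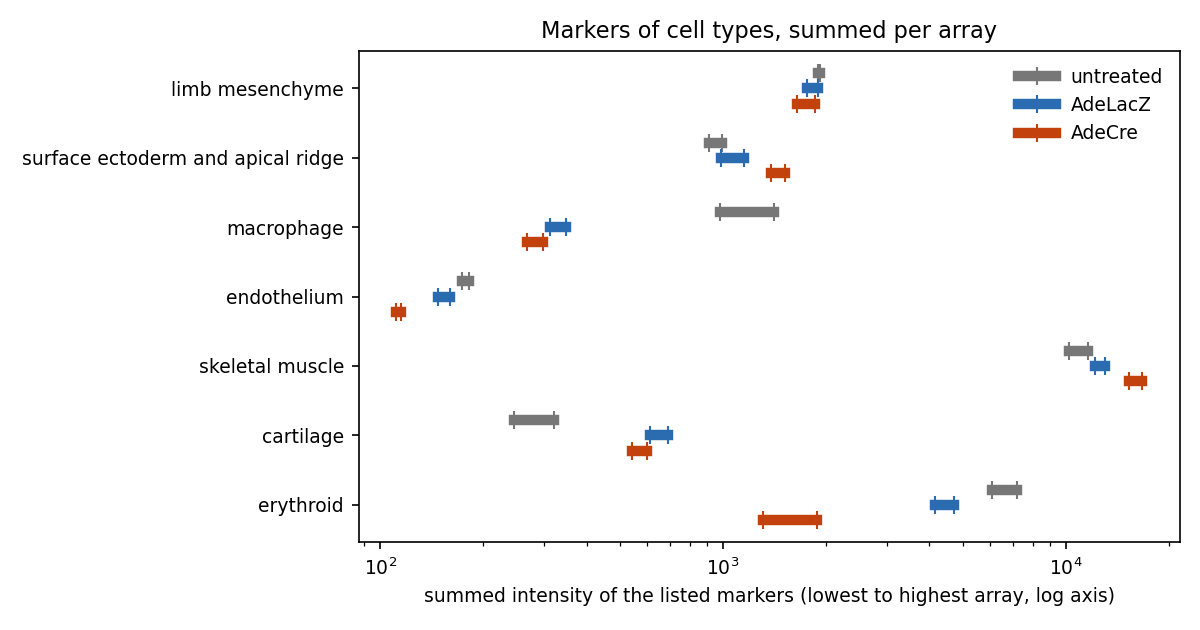
Summed intensity of the markers of 7 cell types (log horizontal axis), drawn as the range from the lowest to the highest array of each group. The macrophage sums of the untreated arrays lie at 982.3 to 1411, above all virus-treated arrays, and the cartilage sums at 246.0 to 321.0, below them.

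For the 4 genes with a called probe, the genes most like the brightest probe over the 8 arrays were taken by Pearson correlation of log2 signal, as a description, since the arrays fall into 3 groups and 14994 or 14995 probes were searched. For Tgfbi (brighter probe) they were Eif2ak2 (r = 0.987, rho = 0.881), Ntn3 (r = 0.987, rho = 0.833) and Sytl2 (r = 0.984, rho = 0.810). For Nog they were Med30 (r = 0.987, rho = 0.976), Gdnf (r = 0.986, rho = 0.952) and Bloc1s3 (r = 0.979, rho = 0.905). For Bmp7 they were Onecut3 (r = 0.979, rho = 0.929), Steap2 (r = 0.975, rho = 0.881) and Tmem164 (r = 0.972, rho = 0.905). For Smad6, whose brightest probe ILMN_2773835 was not itself called, they were Zfp282 (r = 0.969, rho = 0.881), Rara (r = 0.959, rho = 0.810) and Sars2 (r = 0.953, rho = 0.786).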

How the data were processed

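Deposited values of 8 Illumina bead arrays were used. Per the submitters' processing notes BeadStudio 2.1 was among the tools; background subtraction and normalization are not given in the sources used here. The deposited intensity values are linear, 25.7% lie below 0, and columns differ by at most 0.190 units at any rank. Another deposited table was left out, since its 32 value columns carry chip positions that no label repeats.

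Intensities were corrected with normexp (offset 16, limma 3.58.1, R 4.3.3), which shrinks changes of dim probes, and put on the log2 scale. The detection floor was 1.645 times a background SD estimated from the negative values, 8.87 to 8.93 units. The 15944 probes (62.0%) above it on at least 2 arrays were tested; all 13 probes of the 10 genes passed this filter. One linear model over the 3 groups (lmFit, eBayes; 5 residual and 5.64 prior degrees of freedom) gave 3 two-sided comparisons with Benjamini-Hochberg adjustment over all tested probes. It was tested on simulated data. Probe names came from the platform annotation, updated through Entrez identifiers: 23978 probes had 1 symbol, 1719 had none and 23962 were matched. The build behind the probes is not named. Errors are limma's moderated SE.

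The 10 genes, the pathway list and the marker lists were chosen with earlier results of these data known. The genes named are the 10, Sox4, pathway genes past the threshold (at most 20 per comparison, brightest probe) and the 3 most similar genes to the brightest probe of each gene with a called probe; Isg15, which marks untreated replicate 2, and the markers are outside that rule. The alternatives tried were other offsets, scalings, filters, array weights, trend and robust fitting, a replicate block, the 2 groups alone and leaving out each array. Plots and motif searches used Python 3.11.15 and matplotlib 3.10.9.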

Additional observations from a re-analysis of the deposited data

How the results depend on the processing

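Quantile normalization could change little, since the deposited columns already share 1 distribution, and cyclic loess gave 0, 4 and 5 of the 13 probes in AdeCre against AdeLacZ, AdeLacZ against untreated and AdeCre against untreated cells, as reported. In AdeCre against AdeLacZ cells the count was 2 with an offset of 50, and 1 each with the stricter filter on dim probes, array weights, or trend and robust fitting; these calls were Grem1 or ILMN_3008748 of Smad6, both lower. With the replicate block it was 0, 3 and 4 in the 3 comparisons. Bmp7 in AdeLacZ cells (adjusted p = 0.0622) and ILMN_3008748 in AdeCre cells (adjusted p = 0.0772) were lost against untreated cells. Deviations of same-numbered arrays from their group means correlated at -0.142 to 0.023 over 7 pairs, 0 over 0.1. Differently numbered arrays gave -0.144 to 0.144. In groups of 2 or 3 arrays such deviations cancel within a group, so the pairs are not independent. Whether same-numbered arrays share more than a number cannot be told from them. Leaving out each array in turn gave 0 to 0, 1 to 4 and 2 to 5. The lowest counts came without untreated replicate 1 (1 and 2) and without untreated replicate 2 (2 and 3), where 1 untreated array remained. Of 699 single values under an alternative, 674 kept their side of the threshold, 19 no longer passed, 6 newly passed and 0 that passed turned sign. Bmp4 passed in AdeCre against untreated cells with trend and robust fitting (log2 change 0.27, adjusted p = 0.0328). Dim probes such as Bmp2 are limited by their signal over background.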
